A study of Mus musculus with 2 samples.

Results

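The growth factor axis described here comprises 8 genes: the ligands Pdgfa, Pdgfb, Pdgfc and Igf1, the receptors Pdgfra, Pdgfrb and Igf1r, and the secreted binding protein Igfbp7. They were chosen by symbol, and all 8 were found once among the 55357 genes listed in both libraries, with the identifiers Pdgfa ENSMUSG00000025856, Pdgfb ENSMUSG00000000489, Pdgfc ENSMUSG00000028019, Pdgfra ENSMUSG00000029231, Pdgfrb ENSMUSG00000024620, Igf1 ENSMUSG00000020053, Igf1r ENSMUSG00000005533 and Igfbp7 ENSMUSG00000036256. Platelet-derived growth factors (PDGF) are secreted dimers that act on the receptor tyrosine kinases PDGFRA and PDGFRB of mesenchymal cells, and in injured liver PDGF-B is a classical mitogen of hepatic stellate cells, the vitamin A-storing pericytes that turn into matrix-producing myofibroblasts. Insulin-like growth factor 1 (IGF1) is made mainly by hepatocytes and also by macrophages, and signals through the kinase IGF1R. IGFBP7 is a secreted protein related to the IGF binding proteins and is abundant in mesenchymal and endothelial cells.

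The data are droplet single-cell RNA sequencing of mouse liver, with 1 library from mice given carbon tetrachloride and indole propionic acid (CCl4+IPA) and 1 from mice given carbon tetrachloride alone (CCl4). CCl4 is a hepatotoxin used to induce liver fibrosis, and both groups carried this injury. IPA is a tryptophan metabolite of gut bacteria. The labels name no dose, time, strain, age or number of mice. The study's title concerns IPA, liver fibrosis and pro-fibrogenic macrophages.

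Unique molecular identifiers (UMIs, each a captured transcript) came to 37983923 over 10471 barcodes of the CCl4+IPA library and to 45009730 over 10427 barcodes of the CCl4 library. After filters, 10128 CCl4+IPA cells and 10016 CCl4 cells were analysed. The median mitochondrial share of UMIs was 1.78% in the CCl4+IPA library and 3.53% in the CCl4 library, and 20 cell barcodes occurred among the analysed cells of both libraries. Cells were clustered without the 8 genes and named from marker lists, so a name such as T cell stands for T cell-like cells throughout. Although whole liver was dissociated, lymphocytes dominated, with 15 CCl4+IPA and 12 CCl4 hepatocytes, 7 CCl4+IPA and 37 CCl4 cells in the stellate cell or fibroblast-like class and no endothelial class. Another 295 CCl4+IPA and 787 CCl4 cells were unnamed, of which 554 were a shallow cluster of CCl4 cells. Levels are UMIs per 1000000 UMIs of a class (CPM). With 1 library per group there is no replicate error, no test was run, and the 95% intervals given cover counting error only. A lower level in a class cannot be told apart from a change in which cells make up the class, unless the clusters within it are given.

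Promoter sequences are shown for 3 of the 4 members whose windows lay outside every annotated exon, the receptor Igf1r (measured in 13 classes), Igfbp7 (8 classes) and the receptor Pdgfra (2 classes). The window of Pdgfc, also measured in 2 classes, is not shown. A member counted as measured in a class where it had at least 20 UMIs over both libraries. Each run is the 250 bases before the RefSeq start on GRCm38.p6, 5′ to 3′ on the gene's strand, at chr7:67952007-67952256 (plus strand) for Igf1r, chr5:77408046-77408295 (minus strand) for Igfbp7 and chr5:75152001-75152250 (plus strand) for Pdgfra. Capitals mark GGGCGG (the GC box) on either strand, and CCAAT and TATAAA were also searched on both strands and do not occur in these 3 windows.
Igf1r: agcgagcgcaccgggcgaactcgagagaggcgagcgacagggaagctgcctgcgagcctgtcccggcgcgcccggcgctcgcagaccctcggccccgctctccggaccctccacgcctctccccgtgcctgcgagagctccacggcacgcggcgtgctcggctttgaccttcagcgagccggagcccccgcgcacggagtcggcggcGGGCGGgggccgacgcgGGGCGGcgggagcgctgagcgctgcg
Igfbp7: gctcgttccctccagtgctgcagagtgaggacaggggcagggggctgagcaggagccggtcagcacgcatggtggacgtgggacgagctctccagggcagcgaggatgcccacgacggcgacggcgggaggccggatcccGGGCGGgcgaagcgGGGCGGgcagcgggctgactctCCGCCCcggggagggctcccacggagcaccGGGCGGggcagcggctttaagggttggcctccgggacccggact
Pdgfra: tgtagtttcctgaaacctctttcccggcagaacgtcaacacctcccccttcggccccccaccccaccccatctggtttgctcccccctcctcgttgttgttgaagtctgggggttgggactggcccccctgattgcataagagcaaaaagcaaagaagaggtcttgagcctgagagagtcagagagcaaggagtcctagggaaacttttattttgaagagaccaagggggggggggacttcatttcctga
The Igf1r window was 77.6% G and C with 42 CpG dinucleotides, the Igfbp7 window 74.0% with 26, and the Pdgfra window 54.4% with 4, against medians of 52.4% and 6 over 32851 RefSeq promoter windows. GGGCGG occurred 2 times in the Igf1r window, 4 times in the Igfbp7 window and not in the Pdgfra window. Of all windows, 32.7% held GGGCGG, 33.8% held CCAAT and 12.4% held TATAAA. Promoter rows matched 6 of the 8 members.

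The members differed in where their transcripts lay, and the shares differed between libraries. Mesothelial cells, the lining of the liver surface, held the largest share of Pdgfa UMIs (57.7% in CCl4+IPA, 45.6% in CCl4) and Igfbp7 UMIs in both libraries. Pdgfra UMIs lay mostly in mesothelial cells in CCl4+IPA (96.4%) and in the stromal class in CCl4 (76.2%), and Pdgfc UMIs mostly in mesothelial cells in CCl4+IPA (66.0%) and in cholangiocytes in CCl4 (45.5%). For Igf1 the largest share was that of hepatocytes in CCl4+IPA (50.7%) and of macrophages in CCl4 (37.8%), where hepatocytes held 6.31%. T cells held 21.0% of Pdgfb UMIs in CCl4+IPA and 19.6% in CCl4. Mesothelial cells held 88.1% of Igfbp7 UMIs in the CCl4+IPA library and 60.9% in the CCl4 library, although they made up 0.978% and 0.869% of the cells in CCl4+IPA and CCl4. NK or ILC1 cells held 52.2% of Pdgfb UMIs in the CCl4+IPA library, where they were 12.3% of cells, and 27.8% in the CCl4 library, where they were 5.62% of cells. Neutrophils held 41.0% of Igf1r UMIs in the CCl4+IPA library and 40.8% in the CCl4 library. Over all analysed cells, Igf1 had 75 UMIs in the CCl4+IPA library and 333 in the CCl4 library, and Pdgfra had 83 and 302 UMIs in CCl4+IPA and CCl4.

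**Figure D1:**
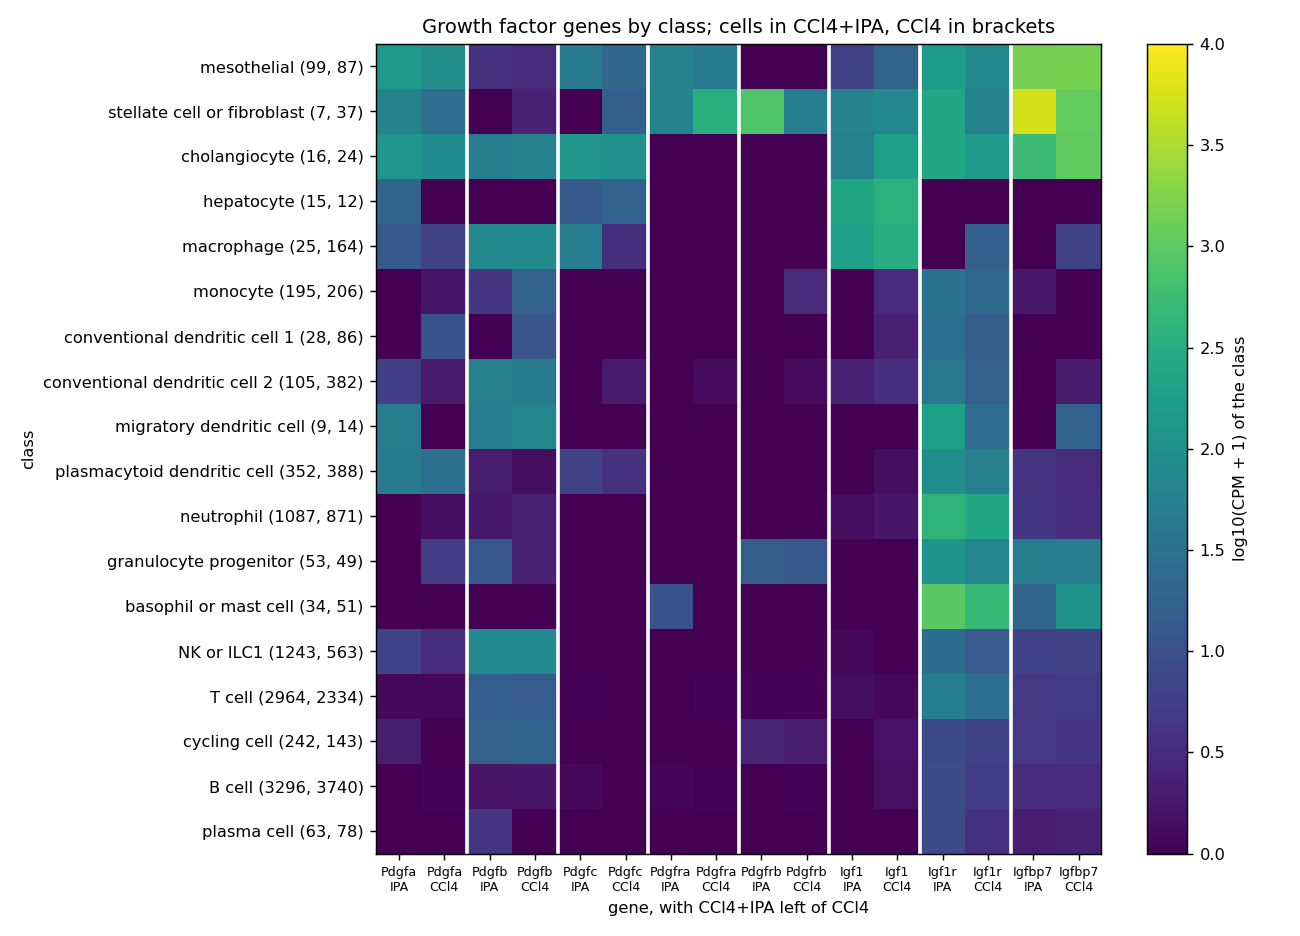
Level of each of the 8 genes in every named class, as log10(CPM + 1) of the UMIs summed over a class in a library, with the CCl4+IPA column left of the CCl4 column for each gene and cell numbers in brackets. Igfbp7 is brightest in mesothelial, stromal and cholangiocyte rows (1530 CPM in CCl4+IPA and 1576 CPM in CCl4 mesothelial cells). Igf1r is brightest in the basophil and neutrophil rows and is also bright in cholangiocyte, mesothelial and stromal rows.

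Across 15 classes, 43 pairs of a member and a class were measured. The CPM ratio of CCl4+IPA over CCl4 was at least 2 in 7 pairs and at most 0.5 in 5 pairs, and its counting interval left out 1 in 21 pairs. Over all genes of these classes, 27.3% of gene and class pairs had an interval that left out 1. Of the 12 pairs past 2-fold, 5 were in the stellate cell or fibroblast-like class, where 18.7% of 5346 genes with 20 UMIs were past 2-fold higher in CCl4+IPA and 6.72% lower. Over all genes of the 15 classes, 6.2% of 116968 gene and class pairs were past 2-fold higher and 2.66% were past 2-fold lower.

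**Figure D2:**
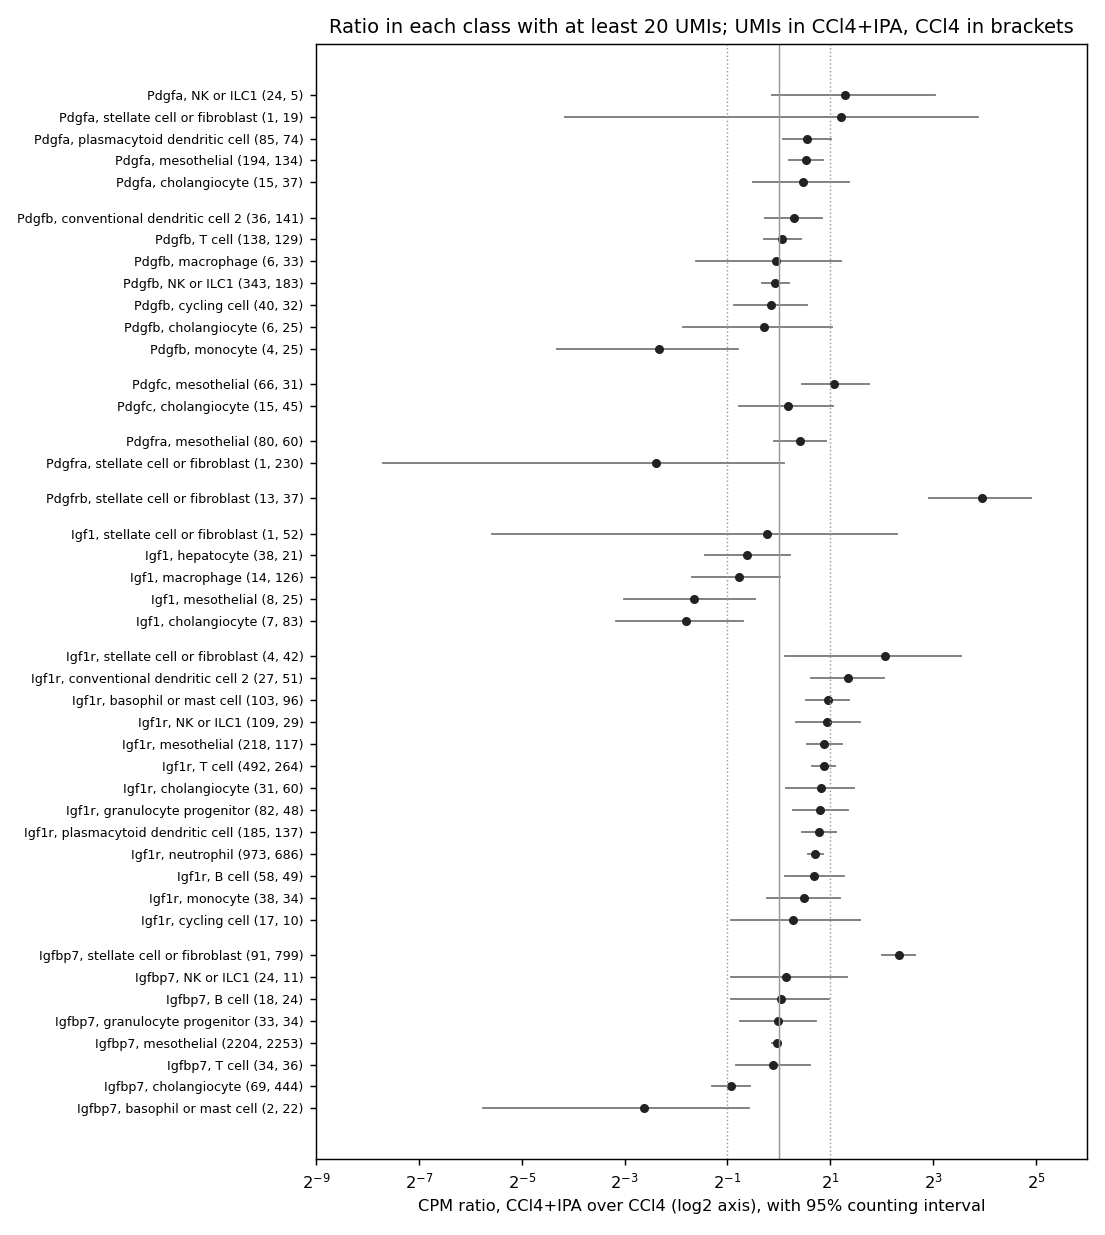
CPM ratio of CCl4+IPA over CCl4 (log2 axis) for the 43 measured pairs of a gene and a class, with UMIs in CCl4+IPA and CCl4 in brackets, bars for 95% counting intervals and dotted lines at 2-fold. The 13 Igf1r points all lie right of 1, whereas the 5 Igf1 points all lie left of it. The interval leaves out 1 for 11 of the Igf1r points and 2 of the Igf1 points.

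Igf1, the ligand of IGF1R, had a CPM ratio below 1 in all 5 classes where it was measured, past 2-fold in cholangiocytes and mesothelial cells. Only in these 2 did the interval leave out 1. It did so, in either direction, in 27.3% of all gene and class pairs of the 15 classes. A share for lower ratios alone is not given. How many other genes lay below 1 in all 5 classes was not counted. In the stromal class the ratio rested on 1 CCl4+IPA UMI and was 2.11 (0.0525 to 12.3) without the deepest of the 7 cells. As a mean over cells its log2 ratio was 0.06. Other processing also turned the direction in 2 more classes, with log2 ratios of 0.14 in hepatocytes with each library clustered alone and 0.02 in macrophages as a mean over cells, against -0.63 and -0.77. The cholangiocyte and mesothelial ratios remained below 1 under every alternative that gave a value. Hepatocytes had 237 CPM (38 UMIs in 15 cells) in CCl4+IPA and 366 CPM (21 UMIs in 12 cells) in CCl4, a ratio of 0.649 (interval 0.371 to 1.16). A single cell held 28 of the 38 CCl4+IPA UMIs, and 5 of 15 CCl4+IPA and 8 of 12 CCl4 hepatocytes had any. Macrophages had 178 CPM (14 UMIs, 25 cells) in CCl4+IPA and 305 CPM (126 UMIs, 164 cells) in CCl4, a ratio of 0.586 (0.311 to 1.02), which was -2.93 on the log2 scale with each library clustered alone. Both intervals include 1, and the order of classes (hepatocytes, macrophages, cholangiocytes) is not separated either, since their ranges over the libraries overlap. Cholangiocytes, the bile duct epithelium, read 56.1 CPM (7 UMIs, 16 cells) in CCl4+IPA and 196 CPM (83 UMIs, 24 cells) in CCl4, 3.49-fold lower (1.62 to 8.95), in a class where 8.16% of genes were past 2-fold lower. The most UMIs in 1 cell were 3 in CCl4+IPA and 31 in CCl4. That cluster also carried the hepatocyte marker list at 5371 CPM in CCl4+IPA and 7870 CPM in CCl4, and its median mitochondrial share was 2.05% in CCl4+IPA and 0.114% in CCl4. The part of either in the Igf1 value was not tested. Mesothelial cells had 5.55 CPM of Igf1 in CCl4+IPA and 17.5 CPM in CCl4, 3.15-fold lower (1.38 to 8.08), where 2.69% of genes were past 2-fold lower. All 4 mesothelial clusters read lower in CCl4+IPA, on 0 to 6 UMIs each in CCl4+IPA and 2 to 10 in CCl4. The cluster with the 10 UMIs, led by Prg4 and Fmo2, also carried CD3 genes of T cells at 569.7 CPM over both libraries, whose part in the value was not tested. B cells, which should not make IGF1, had 0 UMIs in CCl4+IPA (3296 cells) and 0.448 CPM in CCl4.

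Monocytes and macrophages pooled as mononuclear phagocytes had 11.01 CPM of Igf1 (14 UMIs, 220 cells) in CCl4+IPA and 67.7 CPM (129 UMIs, 370 cells) in CCl4, 6.15-fold lower (3.54 to 11.6). In this pool 2.64% of 8568 genes were past 2-fold lower. Macrophages supplied all 14 of these UMIs in CCl4+IPA and 126 of the 129 in CCl4, and they were 11.4% of phagocytes in CCl4+IPA (7.49 to 16.3%) and 44.3% in CCl4 (39.2 to 49.5%). With the make-up of the pool held at the mean of both libraries, a calculation chosen after the data had been seen, the Igf1 ratio was 0.563, no longer past 2-fold. Within the macrophages, the cluster led by C1q genes, Cd5l, Clec4f and Vsig4, genes of Kupffer cells, the resident macrophages of liver, had 596 CPM in CCl4+IPA (16 cells, 326 to 999) and 674 CPM in CCl4 (125 cells, 547 to 822). Its cells were shallow, with median UMIs of 762 in CCl4+IPA and 966 in CCl4 and a median mitochondrial share of 0 in both. The cluster led by Ms4a7, Gpnmb and Trem2, genes of recruited lipid-associated macrophages, had 0 Igf1 UMIs in 9 CCl4+IPA cells, which allows up to 67.1 CPM, and 108 CPM in 39 CCl4 cells (72.0 to 154). Kupffer cell markers summed to 4843 CPM in CCl4+IPA macrophages and 1033 CPM in CCl4 macrophages, and all 8 of them were detected in both.

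Pdgfb, the B-chain ligand that acts on both receptors, was also lower in the CCl4+IPA pool. The parts of the pool differed, with monocytes past 2-fold lower and macrophages at a ratio of 0.958. Pooled phagocytes had 7.86 CPM (10 UMIs) in CCl4+IPA and 30.5 CPM (58 UMIs) in CCl4, 3.87-fold lower (1.96 to 8.5). With the make-up held at the mean of both libraries the ratio was 0.530. Macrophages as a class had 76.5 CPM in CCl4+IPA and 79.8 CPM in CCl4 (ratio 0.958, 0.328 to 2.32), but the log2 ratio was 1.37 at Leiden resolution 2 and 1.47 by a per-cell marker gate, on 4 CCl4+IPA UMIs each. The Trem2 and Gpnmb cluster carried 109 CPM in CCl4+IPA (6 UMIs, 40.1 to 238) and 108 CPM in CCl4 (29 UMIs, 72.0 to 154). Monocytes had 3.35 CPM (4 UMIs) in CCl4+IPA and 16.8 CPM (25 UMIs) in CCl4, 5.00-fold lower (1.73 to 19.8), in a class where 1.86% of genes were past 2-fold lower. Of those monocyte UMIs, 2 of 4 in CCl4+IPA and 22 of 25 in CCl4 lay in the cluster led by Ace and Ear2, genes of nonclassical monocytes, which held 16 CCl4+IPA and 48 CCl4 cells. Inside that cluster the levels were 44.3 CPM in CCl4+IPA (5.37 to 160) and 103 CPM in CCl4 (64.7 to 156), intervals that overlap.

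**Figure D3:**
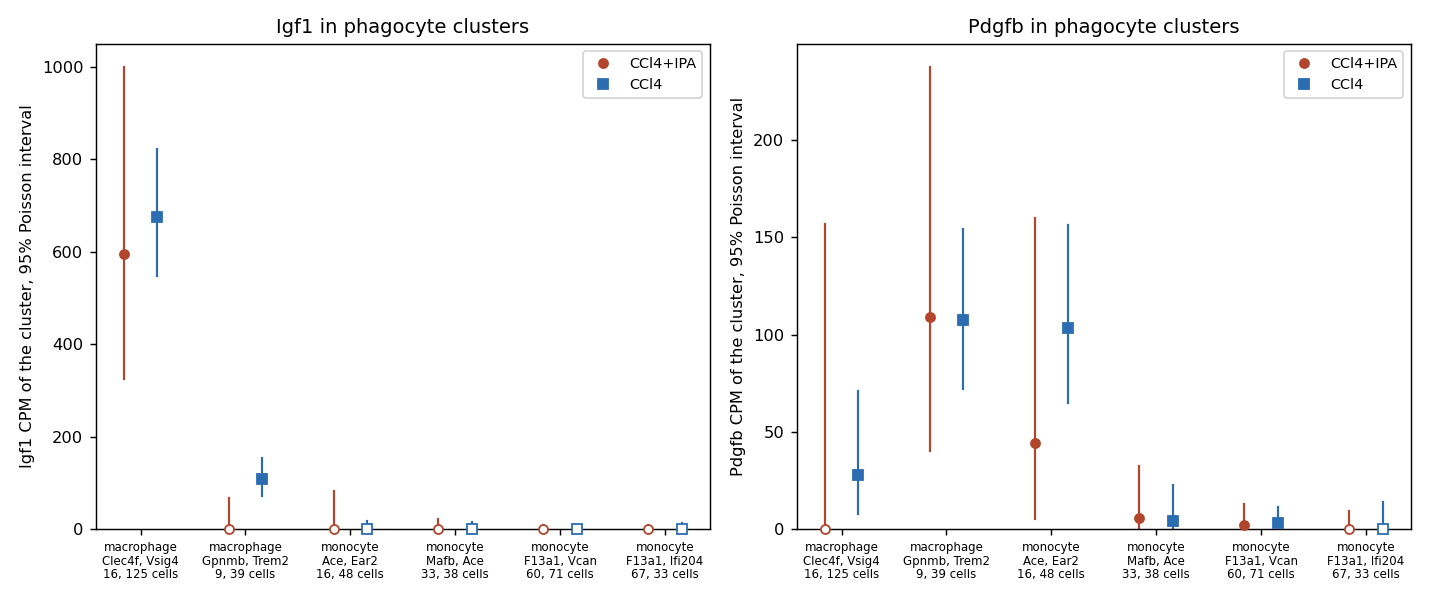
Igf1 (left) and Pdgfb (right) CPM in 6 phagocyte clusters, with 95% Poisson intervals, CCl4+IPA left of CCl4, open symbols for 0 UMIs and cell numbers under each name. Igf1 stands out in the Clec4f and Vsig4 cluster of both libraries (596 CPM in CCl4+IPA, 674 CPM in CCl4), and Pdgfb in the Gpnmb and Trem2 cluster and the Ace and Ear2 cluster.

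Of the 5 other classes where Pdgfb was measured, none had an interval that left out 1. NK or ILC1 cells had 77.7 CPM (343 UMIs, 1243 cells) in CCl4+IPA and 81.9 CPM (183 UMIs, 563 cells) in CCl4, a ratio of 0.949 (0.791 to 1.14). Within them, the cluster led by Klra genes, Prf1 and Gzma (receptors and cytotoxic effectors of NK cells) had 101.5 CPM in CCl4+IPA and 102 CPM in CCl4, and the Xcl1-led cluster had 59.0 CPM in CCl4+IPA and 54.0 CPM in CCl4. At least 1 Pdgfb UMI was seen in 21.2% of CCl4+IPA and 24.7% of CCl4 NK or ILC1 cells, and in 8.18% and 8.97% of CCl4+IPA and CCl4 cells after thinning each to 1000 UMIs. In T cells it was 14.4 CPM in CCl4+IPA and 13.8 CPM in CCl4 (ratio 1.05, 0.819 to 1.34), with most UMIs in the Cd8a and Gzmk-led cluster (31.3 CPM in CCl4+IPA, 27.2 CPM in CCl4). Conventional dendritic cells 2 had 53.9 CPM in CCl4+IPA and 43.9 CPM in CCl4 (1.23, 0.827 to 1.78), cholangiocytes had 48.1 CPM in CCl4+IPA and 59.0 CPM in CCl4 (0.815, 0.274 to 2.04), and cycling cells had 16.1 CPM in CCl4+IPA and 17.98 CPM in CCl4 (0.893, 0.547 to 1.47). In the order of levels, NK or ILC1 cells and macrophages overlapped over the libraries, as did migratory dendritic cells, cholangiocytes and conventional dendritic cells 2 below them. This order leaves counting error aside, and migratory dendritic cells had 1 Pdgfb UMI in CCl4+IPA and 8 in CCl4. B cells gave 0.611 CPM in CCl4+IPA and 0.716 CPM in CCl4, the level of a class that should lack the gene. A gate for endothelial cells, a known source of PDGF-B, found 6 CCl4+IPA and 5 CCl4 cells with 4 Pdgfb UMIs in CCl4+IPA and 1 in CCl4, too few to compare.

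Pdgfa, the A-chain ligand of PDGFRA, was highest in mesothelial cells and cholangiocytes, whose ranges overlapped. Mesothelial cells had 135 CPM (194 UMIs, 99 cells) in CCl4+IPA and 93.7 CPM (134 UMIs, 87 cells) in CCl4, 1.44-fold higher (1.15 to 1.80). The largest CCl4+IPA mesothelial cluster, led by C3, Prg4 and Gpc3, had 150 CPM (59 cells) in CCl4+IPA and 86.4 CPM (21 cells) in CCl4. A second, led by Igfbp5, Timp1 and Msln, had 128 CPM (12 cells) in CCl4+IPA and 106 CPM (44 cells) in CCl4, with overlapping intervals. The stromal class, too shallow to be ordered, had 60.8 CPM (1 UMI) in CCl4+IPA and 26.2 CPM (19 UMIs) in CCl4. Among the classes with at least 20000 UMIs in both libraries, plasmacytoid dendritic cells, the interferon-producing dendritic cells, came next. They had 42.4 CPM (85 UMIs, 352 cells) in CCl4+IPA and 28.9 CPM (74 UMIs, 388 cells) in CCl4, 1.47-fold higher (1.06 to 2.03). In each of their 3 largest clusters the CCl4+IPA level was the higher, at 34.3, 49.5 and 48.2 CPM in CCl4+IPA against 30.4, 32.8 and 18.4 CPM in CCl4, with overlapping intervals in each. The remaining shallow cluster had 0 UMIs in CCl4+IPA and 2 in CCl4. Cholangiocytes had 120 CPM in CCl4+IPA and 87.3 CPM in CCl4 (1.38, 0.702 to 2.57). In NK or ILC1 cells the level was 5.44 CPM (24 UMIs) in CCl4+IPA and 2.24 CPM (5 UMIs) in CCl4, a ratio of 2.43 whose interval (0.909 to 8.16) includes 1, where 5.96% of genes were past 2-fold higher.

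Pdgfc, a ligand that needs proteolytic activation, was measured in 2 classes. Cholangiocytes had 120 CPM (15 UMIs, 16 cells) in CCl4+IPA and 106 CPM (45 UMIs, 24 cells) in CCl4, a ratio of 1.13 (0.586 to 2.07). Mesothelial cells had 45.8 CPM (66 UMIs) in CCl4+IPA and 21.7 CPM (31 UMIs) in CCl4, 2.11-fold higher (1.36 to 3.35), where 5.53% of genes were past 2-fold higher. Most of these UMIs, 54 of 66 in CCl4+IPA and 17 of 31 in CCl4, came from the C3, Prg4 and Gpc3 cluster, inside which the levels were 54.3 CPM in CCl4+IPA (40.8 to 70.9) and 43.2 CPM in CCl4 (25.2 to 69.2). That cluster held 59 of 99 mesothelial cells in CCl4+IPA and 21 of 87 in CCl4. Pdgfa was seen in 29 of the 35 CCl4+IPA and 16 of the 20 CCl4 mesothelial cells with Pdgfc, and in 64 of 99 CCl4+IPA and 54 of 87 CCl4 mesothelial cells in all. Cell depth was not held fixed in these counts.

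The receptor Pdgfra, a marker of fibroblasts and portal mesenchyme, was measured in mesothelial and stromal cells. Mesothelial cells had 55.5 CPM (80 UMIs, 34 cells with a UMI) in CCl4+IPA and 42.0 CPM (60 UMIs, 27 cells) in CCl4, a ratio of 1.32 (0.935 to 1.88). The direction turned under 2 alternatives, with log2 ratios of -0.40 with each library clustered alone and -0.58 by the marker gate, against 0.40. Of the mesothelial cells with Pdgfra, 26 of 34 in CCl4+IPA and 23 of 27 in CCl4 also had Pdgfa, beside 64 of 99 and 54 of 87 of all CCl4+IPA and CCl4 mesothelial cells. Pdgfrb, the receptor of stellate cells and pericytes, had no UMI in mesothelial cells of either library. Its highest level among the classes with at least 20000 UMIs in both libraries was in granulocyte progenitors, at 14.3 CPM (10 UMIs in 5 cells) in CCl4+IPA and 11.2 CPM (8 UMIs in 5 cells) in CCl4, under the 20 UMIs set for a ratio. Igfbp7 in those progenitors was 47.1 CPM in CCl4+IPA, where 28 of 33 UMIs lay in 1 cell, and 47.8 CPM in CCl4. Neither gene held these levels by the marker gate. The 15 CCl4+IPA progenitors of the gate had 0 UMIs of Pdgfrb and 0 of Igfbp7, and the 34 CCl4 ones had 4 and 3.

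The stellate cell or fibroblast-like class held UMIs of both PDGF receptors in both libraries. In the 7 CCl4+IPA cells there was 1 Pdgfra UMI (60.8 CPM), against 230 UMIs in 26 of 37 CCl4 cells (317 CPM), 5.22-fold lower with an interval from 0.927 to 207. Pdgfrb had 13 UMIs in 6 of 7 CCl4+IPA cells (790 CPM) and 37 UMIs in 19 of 37 CCl4 cells (51.0 CPM), 15.5-fold higher (7.55 to 29.8). Igfbp7 had 91 UMIs (5531 CPM) in CCl4+IPA and 799 UMIs (1102 CPM) in CCl4, 5.02-fold higher (4.00 to 6.24). Igf1r had 4 UMIs (243 CPM) in CCl4+IPA and 42 UMIs (57.9 CPM) in CCl4, a ratio of 4.20 (1.09 to 11.6). Igf1 had 1 UMI in CCl4+IPA and 52 in CCl4 (ratio 0.847, 0.0211 to 4.94), and Pdgfa had 1 UMI in CCl4+IPA and 19 in CCl4 (ratio 2.32, 0.0558 to 14.6). The median ratio of all genes in this class was 1.00 on the log2 scale, against 0.03 to 0.28 in the other classes with an Igf1r value. That median gave genes without a UMI in a library a stand-in level, 182.3 CPM in CCl4+IPA and 4.137 CPM in CCl4. Genes absent from CCl4+IPA could therefore count as higher. Only 18.7% of 5346 genes were past 2-fold higher in CCl4+IPA, so the 1.00 was not a measured shift.

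Depth and make-up moved with these stromal values. The CCl4+IPA cells had a median of 1226 UMIs and a mitochondrial share of 0.145%, against 17736 UMIs and 2.09% in the CCl4 cells. A single CCl4+IPA cell supplied 9857 UMIs, 59.9% of the class, with 77 UMIs of Acta2 and 44 of Myh11, contractile genes of smooth muscle, and 61 of the 91 Igfbp7 UMIs. Without it, the other 6 cells had 4548 CPM of Igfbp7 (30 UMIs), a ratio of 4.13 (2.77 to 5.94), and 1213 CPM of Pdgfrb (8 UMIs), a ratio of 23.8 (9.56 to 51.9). The Pdgfra ratio was then 0.478 (0.0121 to 2.69), still on 1 UMI, and that of Igf1r 5.23 (0.614 to 20.1), an interval that includes 1. Lrat, the vitamin A-esterifying enzyme of stellate cells, had 6 UMIs in 2 CCl4+IPA cells and 0 in the 37 CCl4 cells, and Reln, another stellate cell gene, had 3 UMIs in CCl4+IPA and 0 in CCl4. The collagen gene Col3a1 was at 6199 CPM in CCl4+IPA and 6814 CPM in CCl4, and the proteoglycan Dcn at 3890 CPM in CCl4+IPA and 8160 CPM in CCl4. The 11 stellate or fibroblast markers were all detected in CCl4+IPA, and 9 of 11 in CCl4. Their part in the receptor ratios was not tested. In CCl4, where 26 of 37 cells had Pdgfra, 15 of the 19 cells with Pdgfrb and 13 of the 15 cells with Igf1 also had it. Depth, from 628 to 40932 UMIs in the CCl4 cells, was not held fixed in these counts.

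**Figure D4:**
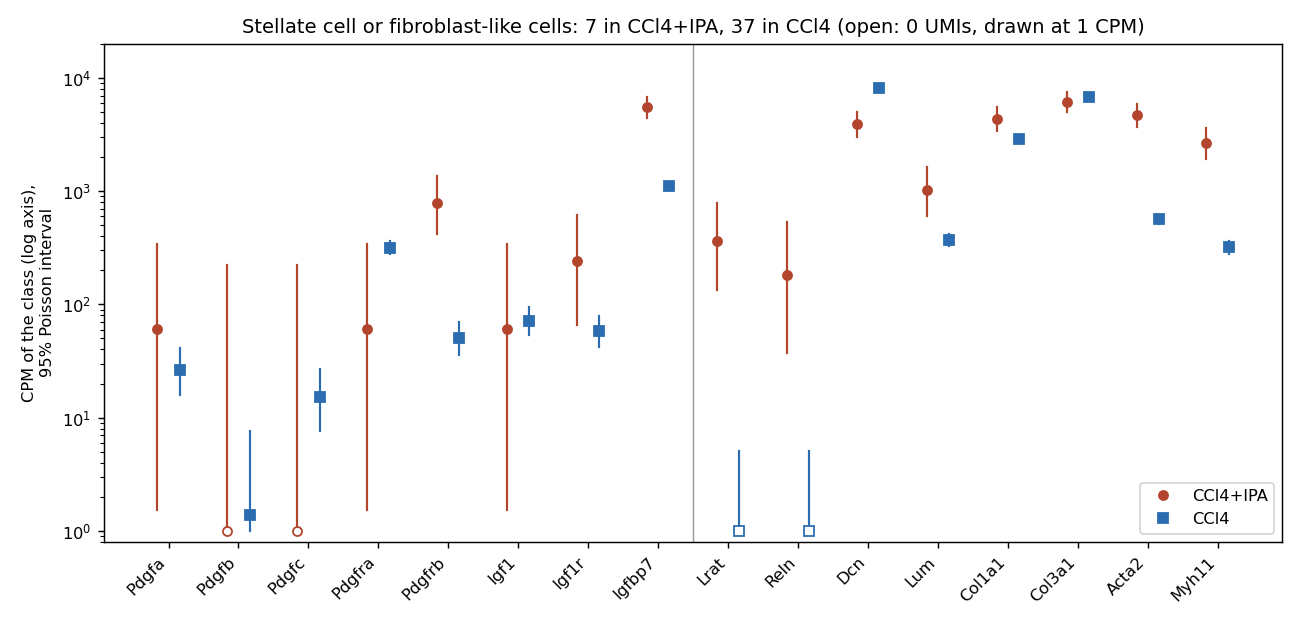
CPM (log axis) of the 8 members (left of the line) and of 8 stellate, fibroblast and smooth muscle markers (right) in the stellate cell or fibroblast-like class, 7 CCl4+IPA cells left of 37 CCl4 cells, with 95% Poisson intervals. Pdgfrb and Igfbp7 are higher in CCl4+IPA, and Lrat and Reln have UMIs in CCl4+IPA only. The lower Pdgfra point of CCl4+IPA rests on 1 UMI, and the interval of its ratio includes 1.

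Igf1r was higher in CCl4+IPA in all 13 classes where it was measured, with a counting interval that left out 1 in 11 of them. Over all genes of these classes, 23% of gene and class pairs were higher in CCl4+IPA with such an interval. Only the cycling cell ratio turned under an alternative, to a log2 ratio of -0.54 with each library clustered alone and -0.01 by the marker gate. Neutrophils had 404.5 CPM (973 UMIs, 1087 cells) in CCl4+IPA and 247 CPM (686 UMIs, 871 cells) in CCl4, 1.64-fold higher (1.48 to 1.81). Basophils or mast cells, where Igf1r was highest, had 934 CPM (34 cells) in CCl4+IPA and 484 CPM (51 cells) in CCl4, 1.93-fold higher (1.45 to 2.57). T cells had 51.4 CPM (492 UMIs) in CCl4+IPA and 28.2 CPM (264 UMIs) in CCl4, 1.83-fold higher (1.57 to 2.13). Conventional dendritic cells 2 were past 2-fold, at 40.4 CPM in CCl4+IPA and 15.9 CPM in CCl4 (2.55, 1.53 to 4.14), where 7.52% of genes were past 2-fold higher. The ratio was 1.90 (1.25 to 2.98) in NK or ILC1 cells, 1.85 (1.47 to 2.33) in mesothelial cells, 1.76 (1.10 to 2.75) in cholangiocytes and 1.74 (1.202 to 2.53) in granulocyte progenitors. It was 1.72 (1.37 to 2.16) in plasmacytoid dendritic cells and 1.62 (1.09 to 2.41) in B cells. The intervals included 1 in monocytes (1.40, 0.856 to 2.29) and cycling cells (1.22, 0.525 to 2.97).

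Outside the stromal class, the whole profile was also shifted, because the median ratio of all genes lay above 1. In T cells that median was 0.28 on the log2 scale against 0.87 for Igf1r, a difference of 0.59, and in neutrophils it was 0.13 against 0.71. Igf1r lay above the class median in all 13 classes, by 0.07 in cycling cells, by 1.15 in conventional dendritic cells 2 and by a median of 0.70. Of 1539 genes measured in all 13 classes, 8.19% were above 1 in every class and 1.88% were above the class median in every class. The class medians compared here include the stromal one, which rests on stand-in levels. The median mitochondrial share of UMIs was 1.78% in the CCl4+IPA library and 3.53% in the CCl4 library. In cholangiocytes it was the higher in CCl4+IPA, at 2.05% against 0.114% in CCl4. Its part in the Igf1r values was not tested apart from that of other genes. A recalculation without mitochondrial, ribosomal and haemoglobin genes together gave a log2 ratio of 0.65 in T cells.

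**Figure D5:**
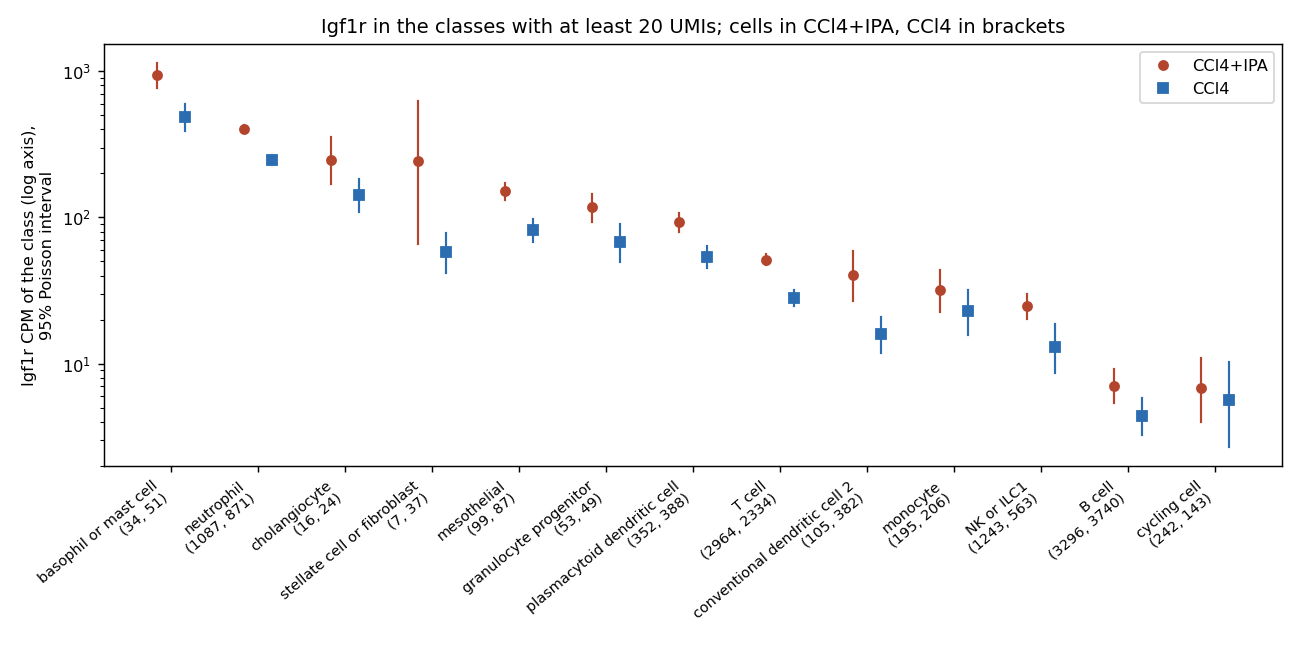
Igf1r CPM (log axis) with 95% Poisson intervals in the 13 classes where it was measured, CCl4+IPA left of CCl4, ordered by level, with cell numbers in brackets. The CCl4+IPA point is the upper one in every class, for example 404.5 CPM against 247 CPM in neutrophils.

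Within classes, Igf1r marked particular clusters in both libraries. Among T cells the Foxp3 and Il2ra-led cluster, with regulatory T cell genes, had 121 CPM (101 to 144) in CCl4+IPA and 44.4 CPM (30.4 to 62.7) in CCl4. The Lef1 and Tcf7-led cluster, with genes of naive T cells, had 35.6 CPM in CCl4+IPA and 16.9 CPM in CCl4, and the Cd40lg and Icos-led cluster had 41.3 CPM in CCl4+IPA and 23.7 CPM in CCl4. The Cd8a and Gzmk-led cluster was near background, at 1.18 CPM in CCl4+IPA and 1.61 CPM in CCl4. In neutrophils, the Csf3r and Cxcr2-led cluster of mature cells had 516 CPM (482 to 552) in CCl4+IPA and 331 CPM (304 to 361) in CCl4. The Ngp, Ltf and Camp-led cluster, with secondary granule genes of immature cells, had 183 CPM (154 to 216) in CCl4+IPA and 135 CPM (114 to 159) in CCl4. At least 1 Igf1r UMI was seen in 51.9% of CCl4+IPA and 45.01% of CCl4 neutrophils, and in 34.6% and 24.7% of CCl4+IPA and CCl4 neutrophils thinned to 1000 UMIs. B cells gave 1.55% in CCl4+IPA and 1.203% in CCl4, at median depths of 2333 UMIs in CCl4+IPA and 2782 in CCl4, against 1729 and 2329 in CCl4+IPA and CCl4 neutrophils. In the order of levels of classes with at least 20000 UMIs in both libraries, basophils or mast cells did not overlap neutrophils. Cholangiocytes, mesothelial cells, migratory dendritic cells, granulocyte progenitors and plasmacytoid dendritic cells each overlapped the class next above.

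Igfbp7 was close in the libraries in its main class and apart in several others. Mesothelial cells had 1530 CPM (2204 UMIs) in CCl4+IPA and 1576 CPM (2253 UMIs) in CCl4, a ratio of 0.971 (0.915 to 1.03). Cholangiocytes had 553 CPM (69 UMIs) in CCl4+IPA and 1048 CPM (444 UMIs) in CCl4, 1.89-fold lower (1.47 to 2.48). Basophils or mast cells had 2 UMIs in 34 cells (18.1 CPM) in CCl4+IPA and 22 UMIs in 16 of 51 cells (111 CPM) in CCl4, a ratio of 0.163 (0.0186 to 0.665), where 4.68% of genes were past 2-fold lower. The Foxp3-led T cell cluster had 9.61 CPM (10 UMIs, 4.61 to 17.7) in CCl4+IPA and 31.9 CPM (23 UMIs, 20.2 to 47.9) in CCl4. T cells as a class had 3.55 CPM in CCl4+IPA and 3.84 CPM in CCl4 (0.926, 0.562 to 1.52), granulocyte progenitors had a ratio of 0.987 (0.592 to 1.64), NK or ILC1 cells 1.10 (0.521 to 2.50) and B cells 1.02 (0.524 to 1.97). B cells held 2.20 CPM in CCl4+IPA and 2.15 CPM in CCl4, so values of a few CPM in other lymphocytes are at the level of a class that should lack the gene.

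Other genes of the pathway were taken from 4 lists: PDGF processing and co-receptors (12 genes), IGF family and binding proteins (21), receptor kinase adaptors and effectors (34) and other stellate cell mitogens with their receptors (19). In phagocytes, 0 of 4 measured PDGF genes, 1 of 3 IGF genes, 0 of 28 adaptors and 1 of 5 mitogen genes were past 2-fold, where 4.54% of all genes were past it higher and 2.64% lower. Their median log2 ratios were -0.01, 0.045, 0.19 and 0.135, against 0.19 for all genes. The VEGF receptor gene Flt1 had 32.2 CPM in CCl4+IPA and 13.1 CPM in CCl4, 2.46-fold higher (1.46 to 4.21). The hepatocyte growth factor receptor gene Met had 28.3 CPM in CCl4+IPA and 14.7 CPM in CCl4, a ratio of 1.93 (1.14 to 3.28). At the low end, the binding protein gene Igfbp4 had 5 UMIs in CCl4+IPA and 15 in CCl4 (ratio 0.499, 0.142 to 1.44), and the Wnt co-receptor gene Lrp6 had 21.2 CPM in CCl4+IPA and 34.1 CPM in CCl4 (0.622, 0.382 to 0.988).

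Mesothelial cells had 0 of 7 PDGF genes, 0 of 10 IGF genes, 2 of 30 adaptors and 3 of 14 mitogen genes past 2-fold, all 5 of them higher, where 5.53% of all genes were past it higher and 2.69% lower. Their median log2 ratios were 0.026, 0.054, 0.24 and 0.265, against 0.07 for all genes. Hbegf, a ligand of the EGF receptor, had 142 CPM (205 UMIs) in CCl4+IPA and 9.09 CPM (13 UMIs) in CCl4, 15.7-fold higher (8.95 to 29.9). Irs2, a docking protein of IGF1R and the insulin receptor, had 112 CPM (162 UMIs) in CCl4+IPA and 34.3 CPM (49 UMIs) in CCl4, 3.28-fold higher (2.37 to 4.61). The other genes past the fold were Vegfa at 2.82 (1.65 to 5.04), the docking protein gene Irs1 at 2.25 (1.19 to 4.44) and the matricellular gene Ccn2 at 2.08 (0.939 to 4.96), the last on 21 UMIs in CCl4+IPA and 10 in CCl4. The lowest ratios were those of Sparc, a matricellular protein that binds PDGF (0.655, 0.610 to 0.702), and the ligand gene Pdgfd (0.692, 0.388 to 1.21).

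T cells had 0 of 5 PDGF genes, 1 of 10 IGF genes, 0 of 28 adaptors and 1 of 7 mitogen genes past 2-fold, where 4.19% of all genes were past it higher and 1.4% lower. Both were higher in CCl4+IPA, Igfbp5 at 3.33 (17 UMIs in CCl4+IPA, 5 in CCl4) and Vegfa at 3.14 (32 UMIs in CCl4+IPA, 10 in CCl4). Hbegf (0.617, 0.402 to 0.935) and the macrophage growth factor receptor gene Csf1r (0.619, 0.274 to 1.34) had the lowest ratios. The adaptors were above 1 in 25 of 28 genes, with a median of 0.36 against 0.28 for all genes. Neutrophils had 1 of 4 PDGF genes and 1 of 5 IGF genes past 2-fold lower, and 0 of 27 adaptors and 0 of 4 mitogen genes past it, where 3.56% of all genes were past it higher and 1.92% lower. Nrp1, a PDGF and VEGF co-receptor, was 2.75-fold lower (1.41 to 5.77) on 12 UMIs in CCl4+IPA and 38 in CCl4. Igfbp6, a binding protein with preference for IGF2, had 48.2 CPM in CCl4+IPA and 108 CPM in CCl4, 2.24-fold lower (1.80 to 2.79). The adaptor gene Gab2 was at 1.96 (1.55 to 2.49) and the kinase subunit gene Pik3r5 at 1.55 (1.27 to 1.90).

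For each member, the 3 genes most alike in level over 34 class-by-library sums were found by Pearson's r of log2(CPM + 10) among 5279 genes. These sums share their libraries and depth, and r is given as a description. Each needed 50000 UMIs, so the stromal class and migratory dendritic cells entered from CCl4 only. The nearest to Pdgfra were Lgi2 (0.986), Tnfrsf11b (0.980) and Fbn1 (0.979), all highest in the stromal class. Pdgfrb was nearest to Sparcl1 (0.893), Myl9 (0.887) and Cyp1b1 (0.866), also highest there, so the receptors had different nearest genes. Igf1 was nearest to Apoc1 (0.922), Hebp1 (0.867) and Gdf15 (0.857), of which the first pair was highest in hepatocytes and Gdf15 in macrophages. Pdgfa was nearest to Ptprf (0.952), Myh10 (0.919) and Maged1 (0.915), and Pdgfc to Tcim (0.921), Gprc5c (0.905) and Cystm1 (0.903). Igfbp7 was nearest to Rhoj (0.952), Gja1 (0.947) and Cavin2 (0.947), and Igf1r to Klf7 (0.850), Csf1 (0.843) and Klf5 (0.807). Pdgfb had the lowest values, for Sgk1 (0.739), Id2 (0.735) and Ckb (0.716). Between members, Pdgfa and Pdgfc were the most alike (0.824), and Igf1 and Igf1r were at -0.213.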

How the data were processed

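Single-cell RNA sequencing (10x Genomics 3′ V3) was measured in 2 mouse liver libraries, 1 per group. The authors deposited unnormalised UMI counts per gene and barcode, and the tool was Cell Ranger 7.1.0, per the file headers. The submitters' processing notes name Cell Ranger and mm9. Whether intronic reads were counted is not stated. The counts carry no coordinates, and promoter windows come from RefSeq on GRCm38.p6.

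Barcodes with at least 500 UMIs, 300 genes and under 20% mitochondrial UMIs were kept, 10459 in CCl4+IPA and 10294 in CCl4. Scrublet called 331 CCl4+IPA and 278 CCl4 barcodes as doublets, and these were left out. Counts were log-normalised and clustered (2000 variable genes without the 8 members, 30 components, 20 neighbours, Leiden resolution 1, seed 1) in both libraries together without integration, and again within myeloid, phagocyte and stromal cells. A cluster took the class whose markers had the highest mean log2 fold (at least 1.5, at least 3 markers, pseudocount of 10 CPM), and remained unnamed where markers of another class prevailed. T cells were an exception. With CD3 genes at 300 CPM and 3 T cell markers, a cluster could take that name below the 1.5 minimum or under another class's score. The T cell score was 1.96 in the Cd8a and Gzmk-led cluster and 1.42 in the Lef1 and Tcf7-led cluster. It was 1.13 in the Cd40lg and Icos-led cluster, where erythroid markers scored 1.94, and 0.567 in the Foxp3-led cluster. The CD3 limit was set after the clusters had been seen, as was the minimum of 20000 UMIs for ordering classes. Smooth muscle markers counted toward the stellate cell or fibroblast class. Its cluster scored 4.07 for smooth muscle markers and 3.89 for stellate cell or fibroblast markers. Shares of cells were also taken after thinning each cell to 1000 UMIs.

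UMIs were summed per class and library and scaled to CPM. CPM has exact Poisson intervals, ratios exact conditional binomial intervals and shares exact Clopper-Pearson intervals, at 95%, for counting error only. Where a library held 0 UMIs, 3 UMIs over the class stood in for list medians and the median of all genes. A 0 upper limit is the Poisson bound. Named genes are every member with at least 20 UMIs in a class, the 3 nearest genes by correlation, and the 2 highest and 2 lowest list genes of a described class. Irs1, Ccn2 and mesothelial Vegfa were added after their values had been seen. The members, lists and classes were chosen with earlier results of these data known. The ratio step was tested on simulated data. Clustering used scanpy 1.11.5 with leidenalg 0.10.2 (igraph 0.11.9), intervals scipy 1.17.1, tables pandas 2.3.3 and numpy 2.4.6, in Python 3.11.15, and figures matplotlib 3.10.9. The result for 1 T cell cluster is not reported here.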

Additional observations from a re-analysis of the deposited data

How the results depend on the processing

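No paired analysis was possible because each group has 1 library, and no replicate could be left out. Under 9 other settings (cell filters, doublets kept, clustering, a marker gate, scaling) the log2 ratio in mononuclear phagocytes lay between -2.81 and -1.95 for Igf1 and between -2.25 and -1.41 for Pdgfb, within the counting intervals. With the phagocyte make-up held at the mean of both libraries, an alternative chosen after seeing the data, it was -0.83 for Igf1 and -0.92 for Pdgfb. Igf1r in T cells (0.87) was 0.65 without mitochondrial, ribosomal and haemoglobin genes and 0.59 relative to the median of all genes, both outside its counting interval. Igfbp7 in stellate cell or fibroblast-like cells (2.33) was 0.80 with mitochondrial UMIs under 10%, 1.74 by a per-cell marker gate, 1.32 relative to the median of all genes, 1.46 as a mean over cells, and 2.04 without the deepest cell (added after seeing the data). The median behind the 1.32 set genes with 0 UMIs in a library at 3 UMIs. Under the tighter mitochondrial limit the class held 130 Igfbp7 UMIs in CCl4+IPA and 1050 in CCl4. The number of pairs past 2-fold (12) was 22 with each library clustered alone, and 11 to 14 otherwise. Pdgfa in stellate cell or fibroblast-like cells (1.21, on 1 UMI in CCl4+IPA) turned to -0.43 as a mean over cells. The cause of these changes was not tested. Of 366 alternative values for the other 42 results, 345 stayed within the counting interval, 20 lay outside it, and 1 turned a pair past 2-fold (that of Pdgfa). The sign turned under 30 alternatives in 18 of the 23 ratios whose counting interval includes 1, and under 0 in the 23 whose interval leaves out 1, phagocytes included. Depth limits the stromal class most, at 16454 UMIs in CCl4+IPA and 725162 in CCl4.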

Other observations

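The shallow unnamed cluster, which held 554 CCl4 cells and 0 CCl4+IPA cells, led by Ctsg, C1qb and Mpo, carried 47 Igfbp7 UMIs in 44 cells (63.7 CPM, 46.8 to 84.7) and 22 Igf1r UMIs (29.8 CPM). The unnamed cluster led by Klra1, Klra7 and Xcl1, which also expressed CD3 genes, had 57.9 CPM of Pdgfb in 273 CCl4+IPA cells (43.4 to 75.7) and 37.2 CPM in 203 CCl4 cells (25.9 to 51.7). Conventional dendritic cells 2 led by Mgl2 and Cd209d had 0 Pdgfb UMIs in 11 CCl4+IPA cells, which allows up to 53.5 CPM, and 64.0 CPM in 40 CCl4 cells.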
